A study of Arabidopsis thaliana with 32 samples.

Results

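The 8 h arrays of a LEAFY induction time course in Arabidopsis thaliana callus are described here. They were chosen by their labels, and they are 4 of the 32 arrays of the series. Each array compared RNA from callus given a dexamethasone-containing solution for 8 h with RNA from callus given a control solution for the same time. Both carried the same transgene, 35S:LFY-GR, so the transgene itself is no difference between the groups. No array of the series held callus without the transgene, so a response to dexamethasone itself cannot be told apart from one to LFY. The 35S promoter is active in most tissues, and the response is therefore that of a mixed callus made from root explants, not of a flower primordium. No age is given in the labels. The other arrays, 4 at each of 0, 2, 4, 6, 10, 12 and 22 h, are labelled in the same way. They served to estimate the spread and to place the 8 h values in time. Dexamethasone RNA was in channel 2 on replicates 1 and 3 and in channel 1 on replicates 2 and 4.

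LEAFY (LFY) is a plant transcription factor that turns young meristems into flowers and acts with other regulators on the genes of floral meristem and organ identity. In the fusion, a steroid-responsive domain taken from the glucocorticoid receptor (GR) holds LFY in the cytoplasm until the steroid dexamethasone is added. With time after induction, genes that LFY acts on directly can be joined by genes downstream of those. Callus is a mass of dividing, little differentiated cells. The array was enriched for flower transcripts, so it samples genes of flowers more densely than the genome does.

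The features carry identifiers such as GP070F8, and 0 of them matched a gene of the TAIR10.1 gene table. No gene names, cell type markers or sequences can therefore be given, neither callus nor root identity could be checked against markers, and LFY itself cannot be looked up. Some features may carry clones from 1 and the same transcript, and a count below is of features and not of genes. A value is the log2 of the ratio between the 2 RNAs of an array, so that 1 is a 2-fold difference. Positive values mean more RNA in dexamethasone-treated callus provided that channel 2 was the numerator of the deposited ratio. Convention makes this likely, but no source used here gives the numerator. With channel 1 as numerator, the positive and negative sides below would exchange and sizes and counts would stay.

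Of the 10816 features, 10695 were tested at 8 h and 121 lacked a value below the limits in 1 or both dye orientations. All 4 arrays measured 10204 features, 3 arrays 400 and 2 arrays 127. Values at the limits of the scale, a ratio of 100 either way, were set to missing. There were 677 of them at 8 h, in 549 features. Replicate 2 held 476 values at the upper limit and 13 at the lower. Replicates 1, 3 and 4 held 3, 62 and 20 at the upper and 11, 59 and 33 at the lower limit. The arrays differed in spread as well. The SD over features was 0.36 on replicate 1, 0.54 on replicate 2, 0.50 on replicate 3 and 0.46 on replicate 4. The number of arrays limits the precision, and no signal intensities were used here.

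At 8 h, the dexamethasone and control RNAs differed for 338 of 10695 features (3.16%), of which 250 (2.34%) were positive and 88 (0.823%) negative. A feature was called where the adjusted p of limma, from a linear model over all 32 arrays with a dye term, was under 0.05. At 0 h the same model called 0 features, and 0 is thus the count at the start of the time course. Positive calls made up 74.0% of the total. At an unadjusted p under 0.05 the sides were nearer in number, with 841 positive and 720 negative features, 14.6% of those tested. The limma calls rested on the spread borrowed from the other time points. An SE given below can therefore be smaller than the 8 h arrays alone would give. A fit of the 4 arrays of 8 h alone called 0 by limma, with 1025 at an unadjusted p under 0.05. Averaging replicate 1 with 2 and replicate 3 with 4 before the fit, as for technical dye swaps, left 192 calls (140 positive and 52 negative).

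The single 8 h arrays weighed unequally on these counts. Without replicate 2, the array with 476 upper-limit values, 188 features were called (1.76%), 153 positive and 35 negative. Without replicate 4 there were 261 calls (2.53%), 157 of them positive and 104 negative. Neither replicate 1 nor replicate 3 moved a count by more than 1.5 times when left out, and the totals were then 278 (2.63%) and 317 (2.97%).

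**Figure D1:**
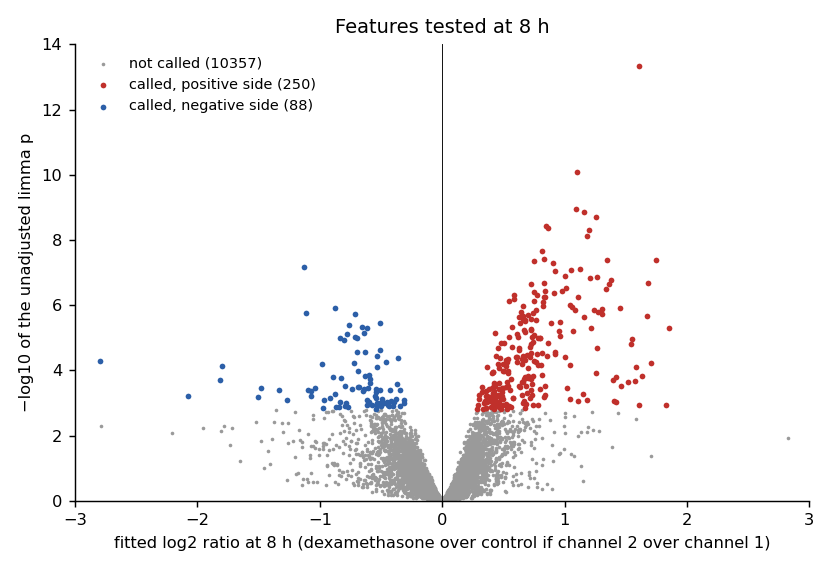
Each point is 1 of the 10695 features tested at 8 h, with its fitted log2 ratio on the horizontal axis and −log10 of its unadjusted limma p on the vertical axis. The 250 red features are positive calls and the 88 blue ones negative calls. The grey points far from 0 and low in the plot are uncalled features, many with a wide spread between arrays or without a value on every array.

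Called features were mostly changed by less than 2-fold. The median log2 ratio was 0.68 for positive and -0.64 for negative calls, against 0.00093 over all tested features. On the positive side 158 of the 250 lay beyond 1.5-fold, 56 beyond 2-fold and 0 beyond 4-fold. On the negative side the counts were 56, 14 and 2 of 88. The smallest called sizes were 0.28 and 0.31. On the positive side 238 features (95.2%) had 1 sign on every array that measured them, and on the negative side 77 (87.5%) did. The median SD between the 4 arrays was 0.29 for positive and 0.36 for negative calls, and 0.27 for features not called. The 69 uncalled features beyond 2-fold had a median SD of 1.64, and 33 of them were measured on all 4 arrays. Of the 69, 31 had 1 sign on all their values. A wide spread did not keep every feature from being called, as GP032G4 below shows.

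GP070F8 had the largest ratio on the positive side among called features measured on all 4 arrays with 1 sign. Its log2 ratios on replicates 1 to 4 were 1.33, 2.102, 1.69 and 2.30. No array came near 0, while at 0 h its 4 values ran from -0.24 to 0.18, so the times did not overlap. The fit gave 1.85 (SE 0.33, limma adjusted p = 0.000705). With replicate 1 averaged with 2 and replicate 3 with 4 it was not among the calls (limma adjusted p = 0.0532). It was already at a mean of 1.38 ± 0.33 (SD, n = 4) at 2 h (limma adjusted p = 0.0607) and stood at 2.52 ± 1.06 at 22 h.

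GP000A3 came next, with 1.56, 2.84, 1.34 and 1.24 on replicates 1 to 4. Replicate 2 was the high one, and the other 3 arrays lay between 1.24 and 1.56. The fitted ratio was 1.75 (SE 0.23, limma adjusted p = 3.33e-05). This feature passed the threshold at every time point from 2 h on, with means from 1.23 ± 0.62 at 2 h to 2.27 ± 0.43 at 22 h.

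GP140C10 had the lowest p of all features at 8 h and was singled out after its values were seen. It read 1.69, 1.84, 1.34 and 1.56, with an SD of 0.21 the tightest set among the features named here with an 8 h ratio beyond 2-fold. Its ratio of 1.61 (SE 0.11, limma adjusted p = 4.85e-10) came after means of 0.05, 0.71, 1.24 and 1.28 at 0, 2, 4 and 6 h. At 10, 12 and 22 h the means were 1.54, 1.52 and 1.73, so that the feature stayed between 1.52 and 1.73 from 8 h on.

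Among negative calls measured on all 4 arrays with 1 sign, the 2 largest ratios came from features that disagreed between arrays. The 2 negative calls beyond 4-fold did not meet that limit. GP147H10 read -1.04, -1.05, -2.94 and -2.23 on replicates 1 to 4, a fitted ratio of -1.82 (SE 0.42, limma adjusted p = 0.0115). Its means at 0, 2, 4, 6 and 12 h lay between -0.18 and 0.52, with single arrays from -0.92 to 1.62. At 10 h the mean was -0.52 ± 0.91 (SD, n = 4) and at 22 h -1.26 ± 1.51, where replicate 2 read -3.48 and the other arrays -0.18 to -0.75, so 8 h was not the only low time. GP032G4 read -0.50, -1.75, -3.72 and -0.03, and its -1.50 (SE 0.38, limma adjusted p = 0.0270) rested mostly on replicates 2 and 3. The SD of these 4 values was 1.65, whereas the SE came from the spread pooled over all time points. Without replicate 3 the ratio of GP032G4 was -0.84 with a limma adjusted p of 0.295, and without replicate 2 it was -1.30 with 0.191. With limit values kept, its limma adjusted p was 0.448. GP147H10 lost its call without replicate 3 (limma adjusted p = 0.0974) or 4 (0.0774), or with the replicates averaged in pairs (0.0505). Neither feature was called in the difference from 0 h (limma adjusted p = 0.160 for GP147H10 and 0.345 for GP032G4).

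Smaller negative ratios with less spread between the 8 h arrays (SD 0.46 and 0.16) were found in GP089G2 and GP133F7, which had the largest negative difference from 0 h among called features with complete values. GP089G2 read -1.33, -1.48, -0.46 and -1.26 at 8 h, with replicate 3 the weakest, against 0.57, 0.02, 0.52 and 0.13 at 0 h. The time points did not overlap, and the difference was -1.44 (SE 0.22, limma adjusted p = 0.000654). GP133F7 read -0.64, -1.02, -0.87 and -0.82 at 8 h against 0.17, 0.15, 0.44 and 0.26 at 0 h, a difference of -1.09 (SE 0.22, limma adjusted p = 0.0107). Its call was lost without 8 h replicate 2 (limma adjusted p = 0.0514) or 0 h replicate 3 (0.0575). With the replicates averaged in pairs both calls were lost, at limma adjusted p = 0.0667 for GP089G2 and 0.191 for GP133F7. Both were on the negative side by 2 h, at -0.81 ± 0.27 and -0.83 ± 0.11 (SD, n = 4), and kept a negative mean at every later time.

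**Figure D2:**
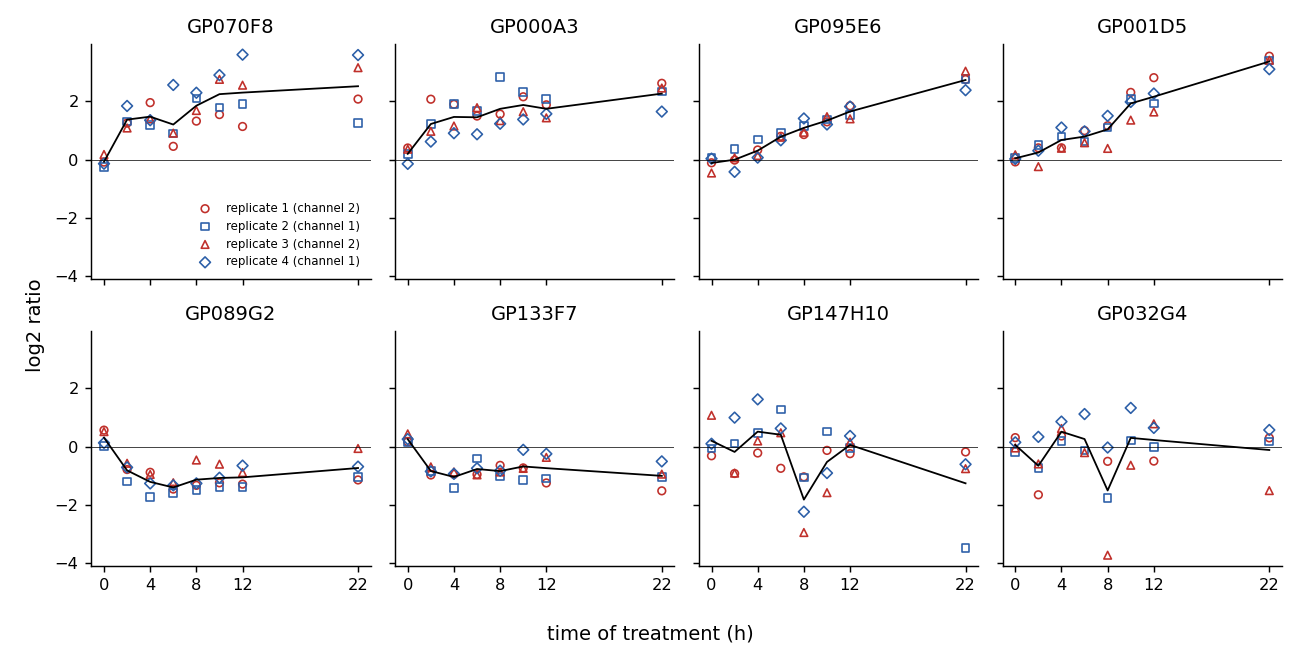
Log2 ratios of 8 features on all 32 arrays, against the time of treatment in hours. Each symbol is 1 array, coloured by the channel of the dexamethasone RNA (red channel 2, blue channel 1), and the line joins the means. The upper row shows positive features, of which GP095E6 and GP001D5 were still climbing after 8 h, and the lower row shows GP089G2 and GP133F7, negative from 2 h on, beside GP147H10 and GP032G4, whose arrays scatter.

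How far the calls carry over to an array that took no part in them was measured by leaving out each 8 h array in turn, calling features on the rest, and reading the left-out array. Positive calls carried over. Their median log2 ratio was 0.59 on replicate 1, 0.77 on replicate 2, 0.41 on replicate 3 and 0.85 on replicate 4, and 85.8% to 95.4% of them lay on the positive side. Among all tested features 49.4% to 52.2% did. Replicate 3 gave the weakest reading, with 0.83 on the arrays that made the calls.

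Negative calls carried over on replicate 2 and far less on the others. The 35 features called without replicate 2 had a median of -0.59 on it and 97.0% lay on the negative side. On replicates 1, 3 and 4 the medians were -0.19, -0.12 and -0.15, and 75.3%, 62.5% and 60.2% of the features were on the negative side, where all features gave 47.8% to 50.5%. The calls themselves stood at -0.67 to -0.78 on the arrays that made them. The mean of the 4 readings was -0.26 ± 0.22 (SD, n = 4 arrays), against 0.65 ± 0.20 for the positive calls. It is not given in the labels if the 4 arrays came from separate RNA samples or from swaps of fewer. In the second case an array read here had its own swap among the arrays that made the calls, and in either case the p-values measure array-to-array spread only, and that spread may be technical.

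**Figure D3:**
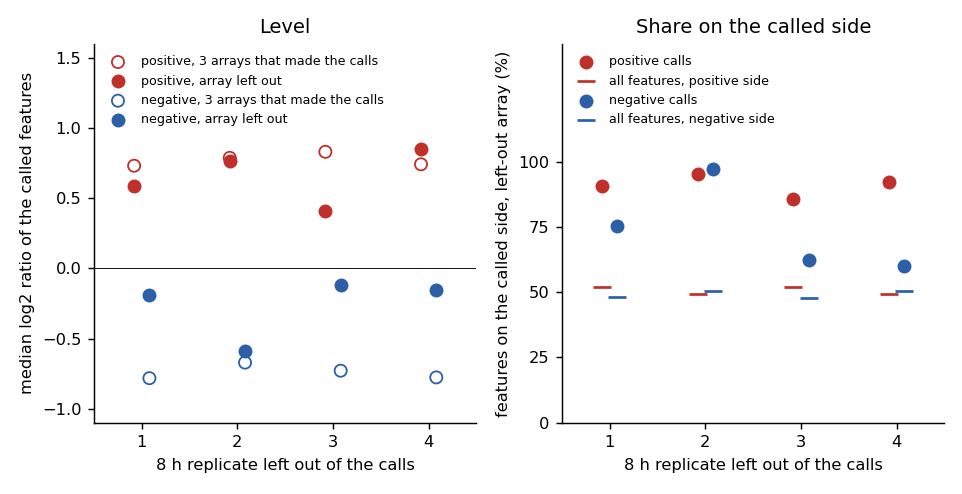
Features called at 8 h on 3 arrays and read on the fourth. On the left, open circles are the median log2 ratio on the 3 calling arrays and filled circles the median on the array left out. On the right, circles are the percentage of those features on the called side of 0 and dashes the percentage of all tested features. Red positive calls kept 0.41 to 0.85, and blue negative calls kept -0.12 to -0.59.

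Across all features the 8 h arrays resembled each other little. With the swapped arrays turned, the correlation over features was 0.17 for replicates 1 and 3 and 0.24 for replicates 2 and 4, the pairs of 1 orientation, and 0.23, 0.03, 0.03 and -0.05 for the pairs of opposite orientation (1 and 2, 1 and 4, 2 and 3, and 3 and 4, over 10237 to 10648 features). Pairs of 1 orientation share a dye effect. Over the 316 features called at 6 h in a fit that held no 8 h array (2.94% of those tested), the same 6 correlations were 0.64 to 0.72. That list joins 216 positive and 100 negative features, and a split into 2 sides raises a correlation by itself. Its values are therefore not comparable with those over all features. All these correlations are descriptions over features that share arrays, not tests.

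In time, the positive calls had higher medians at each step up to 8 h, and the highest at 22 h. At 0, 2, 4 and 6 h the array median of the 250 features was 0.01 ± 0.06 (SD, n = 4), 0.19 ± 0.05, 0.37 ± 0.08 and 0.57 ± 0.03. At 8 h the 4 arrays gave 0.66, 0.73, 0.48 and 0.83. The later medians, at 10, 12 and 22 h, were 0.66 ± 0.07, 0.64 ± 0.05 and 0.83 ± 0.05. The features were chosen at 8 h, which favours high 8 h values, and the other time points took no part in their 8 h ratio except through the shared dye term and spread.

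The 88 negative calls had medians of -0.02 ± 0.06, -0.31 ± 0.12, -0.38 ± 0.06 and -0.46 ± 0.07 at 0, 2, 4 and 6 h. At 8 h the arrays gave -0.47, -0.70, -0.55 and -0.69, and at 10, 12 and 22 h the medians were -0.34 ± 0.10, -0.34 ± 0.11 and -0.32 ± 0.02. The deepest point at 8 h is the point of choice. Each list made without 1 of the 8 h arrays was also read on that array. The medians were -0.19, -0.59, -0.12 and -0.15 on replicates 1 to 4. In the same order the lists stood at -0.42, -0.57, -0.41 and -0.15 at 6 h, and at -0.22, -0.32, -0.31 and -0.17 at 10 h. Only the list read on replicate 2 was lower at 8 h than at 10 h.

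**Figure D4:**
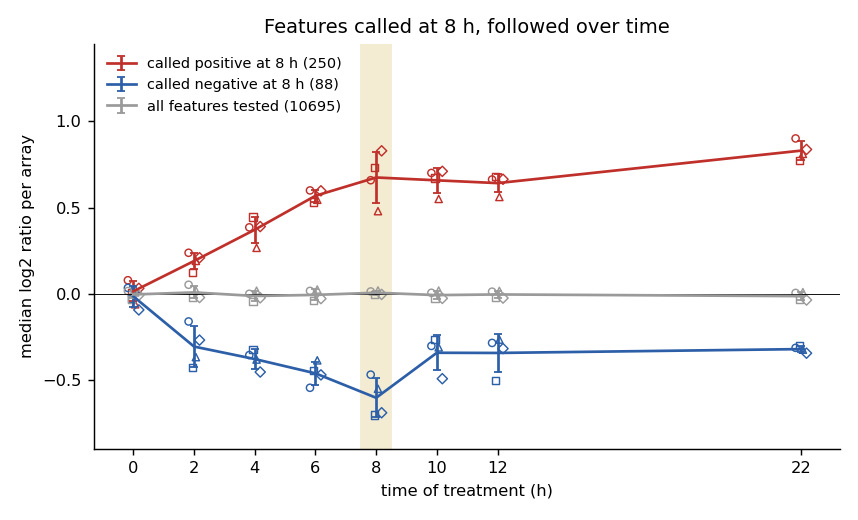
Median log2 ratio per array of the 250 positive calls (red), the 88 negative calls (blue) and all 10695 tested features (grey), against time in hours. Open symbols are single arrays, lines join the means and bars are the SD of 4 arrays. The shaded 8 h values were used to choose the red and blue features, and the grey medians lie within 0.06 of 0 at every time.

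Most positive calls at 8 h were also called at other times. At 2, 4, 6, 10, 12 and 22 h the model called 0.308%, 1.68%, 3.15%, 3.18%, 2.86% and 5.88% of all features. In the same order, 16, 77, 164, 175, 172 and 192 of the 250 features were called on the positive side there, which is 6.4%, 30.8%, 65.6%, 70.0%, 68.8% and 76.8% of them. As a share of the other time's positive list, these were 100%, 75.5%, 72.2%, 72.3%, 68.5% and 42.1%. The times share 1 dye term and 1 estimate of the spread. In all, 178 of the 250 were called at 3 or more other times and 30 at no other.

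Of the 88 negative calls, 7, 33, 40, 28, 23 and 26 were called negative at those times, or 7.95%, 37.5%, 45.5%, 31.8%, 26.1% and 29.5%. In the other lists these made up 41.2%, 42.3%, 35.7%, 28.3%, 41.1% and 14.9%. There were 31 negative calls that no other time point shared and 30 shared with 3 or more. At 6 h 1 of the 338 features was called on the opposite side, and at 22 h 1 was. A feature called at 8 h and not elsewhere is not shown to differ between the times.

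Features chosen without the 8 h arrays gave the 8 h level free of that choice. The 216 features called positive at 6 h, 215 of them tested at 8 h, had 8 h medians of 0.59, 0.63, 0.42 and 0.75 on replicates 1 to 4, against 0.63 ± 0.04 (SD, n = 4) at 6 h itself. At 8 h 96.3% of them were on the positive side. The 100 features called negative at 6 h had 8 h medians of -0.24, -0.43, -0.33 and -0.68, against -0.58 ± 0.07 at 6 h, with 98.0% on the negative side. Replicate 4 was the most extreme array for both lists.

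The 15 features called positive at 2 h (28 of either side, 0.262%) were all called positive at 8 h. Their median was 0.73 ± 0.12 at 2 h and 1.03 ± 0.23 at 8 h. The 100 features positive at 4 h (179 of either side, 1.67%) stood at 0.68 ± 0.11 then and at 0.70 ± 0.18 at 8 h. Looking back from 22 h, the 462 tested features called positive then had a median of 0.43 ± 0.12 at 8 h against 0.77 ± 0.11 at 22 h, and 190 (41.1%) were called at 8 h. The 168 features negative at 22 h had -0.21 ± 0.12 at 8 h, and 26 (15.5%) of them were called there. The 242 features positive at 10 h (343 of either side tested then, 3.20%) had 0.78 ± 0.09 at that time and 0.66 ± 0.15 at 8 h. The negative lists of the early times were smaller in size at 8 h than at their own time. The 2 h list, 12 of its 13 features tested at 8 h, had -0.64 ± 0.23 at 2 h and -0.46 ± 0.14 at 8 h, and 6 were called negative there. The 79 features negative at 4 h had -0.58 ± 0.08 and then -0.42 ± 0.09, with 34 (43.0%) called at 8 h. Of all features tested at 8 h, 2.34% were called positive and 0.823% negative. Each list was chosen on its own time's values, and its difference from the 8 h level includes that choice.

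Against 0 h, the background time point, 84 of 10659 features (0.788%) differed at 8 h, 70 in the positive and 14 in the negative direction. Percentages for the sides were 0.657% and 0.131%. The median SE of this difference was 0.19, against 0.13 for the 8 h ratio itself. The 70 features had array medians of -0.05 ± 0.10 at 0 h and 0.94 ± 0.25 at 8 h, and 35 of them differed by more than 2-fold. The 14 had medians of 0.17 ± 0.06 and -0.74 ± 0.19. GP070F8 had the largest positive difference with complete values, 1.92 (SE 0.46, limma adjusted p = 0.0403), and lost the call when any 1 array of either time point was left out (limma adjusted p = 0.0645 to 0.159). GP061B4 followed with 1.80 (SE 0.33, limma adjusted p = 0.00583). Its 8 h values were 1.50, 1.46, 1.05 and 1.81 and its 0 h values 0.14, -0.75, -1.12 and 0.35. Without 8 h replicate 1, 2 or 4 the total fell from 84 to 49, 48 and 29, and without 0 h replicate 2 or 3 to 41 and 36. With only the 8 arrays of both times in the fit it was 26 (24 and 2).

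From the first hours to 8 h, 1 of 10630 features (0.00941%) differed by limma, with 705 at an unadjusted p under 0.05. It was GP095E6, with 0.86, 1.15, 0.94 and 1.42 at 8 h, a mean of 0.00 ± 0.32 (SD, n = 4) at 2 h and 0.31 ± 0.28 at 4 h. The 8 h values did not overlap those of either earlier time. The difference from the mean of 2 and 4 h was 0.94 (SE 0.15, limma adjusted p = 0.00902). The feature went on to 1.34 ± 0.11 at 10 h, 1.65 ± 0.22 at 12 h and 2.73 ± 0.27 at 22 h. Without 8 h replicate 2 or 4 limma called 0 features in this comparison (569 and 916 at an unadjusted p under 0.05), and without replicate 1 or 3 it called 2 and 11.

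Between 8 h and its neighbours in time limma called no feature. It called 0 of 10677 against 6 h (418 at an unadjusted p under 0.05), 0 of 10665 against 10 h (607) and 0 of 10658 against the mean of both (442). The median SE of these differences was 0.19, 0.19 and 0.16 on the log2 scale, and differences well above that size could go uncalled. Against 0 h, where the median SE was also 0.19, the smallest called difference was 0.53. Between 8 and 10 h GP001G2 rose by 1.02 without a call (limma adjusted p = 0.641). GP147H10, whose mean went from 0.41 ± 0.84 at 6 h to -1.82 ± 0.94 at 8 h and -0.52 ± 0.91 at 10 h, differed from the mean of 6 and 10 h by -1.76 (SE 0.52, limma adjusted p = 0.876). Nothing was shown to be particular to 8 h against the time points on either side.

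Later change was found by 22 h, when 60 of 10664 features (0.563%) differed from 8 h, 57 above their 8 h value (0.535%) and 3 below (0.0281%). Without 22 h replicate 4 the lower side held 14. The 57 had array medians of 0.70 ± 0.29 at 8 h and 2.14 ± 0.32 at 22 h, and 44 differed by more than 2-fold. GP001G2 showed the largest such difference with complete values. It read 1.31, 1.93, 0.01 and 1.97 at 8 h, with replicate 3 apart from the others, and 3.71 ± 0.28 at 22 h, a difference of 2.40 (SE 0.30, limma adjusted p = 1.25e-05). GP001D5 read 1.17, 1.11, 0.39 and 1.51 at 8 h and 3.37 ± 0.19 at 22 h (difference 2.33, SE 0.23, limma adjusted p = 8.14e-07). Replicate 3 was again the lowest.

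On the lower side GP007D5 differed by -0.64 (SE 0.15, limma adjusted p = 0.0316) and GP033B4 by -0.60 (SE 0.13, limma adjusted p = 0.0215). GP007D5 read -0.02, 0.73, 0.35 and 0.38 at 8 h and -0.28 ± 0.32 at 22 h, and at neither time was it called by itself. GP033B4 was near 0 at 8 h, at 0.13, -0.08, 0.26 and -0.25, and at -0.58 ± 0.21 at 22 h. Both calls were lost without 8 h replicate 3 or without 22 h replicate 1 or 2, GP007D5 also without 8 h replicate 2 and GP033B4 without 8 h replicate 1. Without 8 h replicate 4 the total rose from 60 to 119 (112 above and 7 below).

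The identifiers end in a letter from A to H and a number from 1 to 12, as wells of a plate do, after a plate number, and 114 plates are represented. Positive calls at 8 h were spread over 103 of them with at most 8 on 1 plate. Negative calls lay on 59 plates and were more gathered, with 11 on plate GP001. The 10 plates GP000 to GP009 held 8.27% of the tested features, 11.2% of the positive calls and 27.3% of the negative calls. On those plates 3.17% of features were called positive and 2.71% negative, against 2.26% and 0.652% on the other 104. This grouping of plates was made after the values were seen and has no test. Features there also varied more, with a median SD between 8 h arrays of 0.35 against 0.27, and a median SE of 0.16 against 0.13. The part of that spread in the counts was not tested.

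Plate GP001 had the highest negative count. Of its 93 tested features, 6 were called positive and 11 negative, which is 18.3% against 3.16% over all plates. All features of GP001 together had a median ratio of -0.11 at 8 h. The 6 positive features had array medians of 1.24, 1.40, 0.39 and 1.51 at 8 h, and went from 0.01 ± 0.09 (SD, n = 4) at 0 h to 3.30 ± 0.25 at 22 h. Its 11 negative features read -0.30, -0.89, -0.81 and -0.97 at 8 h, against -0.83 ± 0.14 at 6 h, -0.28 ± 0.28 at 10 h and -0.30 ± 0.08 at 22 h. Replicate 1 was the weakest for the negative and replicate 3 for the positive features. Plate GP005 had 8 positive and 0 negative calls among 94 features, against 2.34% positive and 0.823% negative over all plates. Some calls on these plates had consecutive well numbers and near-equal ratios, such as GP001G2 and GP001G3 (1.30 and 1.31) and GP005A3 and GP005A4 (1.36 and 1.34). Whether such features carry clones of the same transcript could not be checked. Of the 57 features above their 8 h value at 22 h, 6 were on GP001 and 6 on GP005. Over the plates, each of the 8 rows held 21 to 40 positive and 6 to 14 negative calls, and each of the 12 columns 12 to 26 positive and 4 to 12 negative calls. No test was run on rows or columns.

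**Figure D5:**
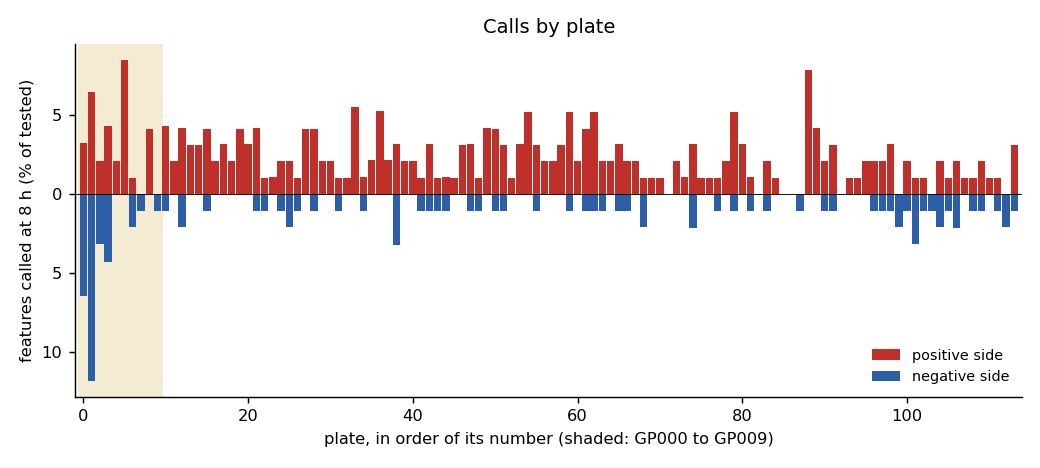
Percentage of tested features called at 8 h on each of the 114 plates, in order of plate number, with the positive side drawn upward in red and the negative side downward in blue. Plates GP000 to GP009 are shaded. The tallest blue bar is GP001, with 11 of 93 features.

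Values at a limit were set to missing, and the direction of such values differed between time points. At 8 h, 35 features were at the negative limit in both dye orientations, and 1 at the positive limit. All 35 were at the limit on replicate 2 and 30 of them on replicate 3. Replicate 1 measured 24 of these features, with a median log2 ratio of -0.10, and 18 were below 0 but only 2 by more than 1. At 2 h the same counts were 17 negative and 0 positive, at 4 h 0 and 38, and at 6 h 0 and 29. At 10, 12 and 22 h they were 0 and 3, 1 and 3, and 1 and 21. The array with most upper-limit values had dexamethasone in channel 1 at 2 and 8 h (replicate 2, 333 and 476 values). It had dexamethasone in channel 2 at 4 h (replicate 3, 321), 6 h (replicate 1, 185) and 22 h (replicate 1, 159). The part of single arrays in these directions was not tested. A further 47 features at 8 h were at the limit in the same channel in both orientations, which is no difference between the RNAs. At 10 and 12 h 182 and 77 features were. Of the 429 tested features with a limit value at 8 h, 8 were called, against 338 of all 10695 tested features (3.16%).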

How the data were processed

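RNA of dexamethasone-treated and control callus was compared on 2-colour cDNA arrays. The authors deposited a log10 ratio for each feature on each array. Per the labels, the authors analysed the data with Rosetta Resolver. The background correction, normalization, dyes and numerator were not stated in any source used. The log10 scale and centring were read from the values, whose extremes were exactly -2 and 2 and whose 8 h array medians were 0.00092 to 0.00636.

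Multiplying the log10 ratios by 3.32 gave log2 ratios, replicates 2 and 4 were turned in sign, and values at the limits were set to missing. The turn follows the labels' channels. Over all features the unturned 8 h arrays correlated at 0.17 and 0.24 within and -0.23 to 0.05 between orientations. Over the features called at 6 h, a list that joins positive and negative features, the turned arrays correlated at 0.64 to 0.72. Each contrast was a coefficient of a linear model (limma 3.58.1, R 4.3.3, lmFit and eBayes) over all 32 arrays, with 1 coefficient per time point and 1 dye term. Features needed 1 value per orientation at each time point compared. Tests were two-sided, with Benjamini-Hochberg adjustment over all tested features and a threshold of 0.05. The procedure was also run on simulated data, with independent arrays and the same spread of a feature at every time. That simulation cannot show how the calls behave where arrays deviate together or differ in spread. Limma adjusted p-values are meant throughout.

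Named features are the largest 2 on each side of each comparison with complete values and, for the 8 h ratio, 1 sign on all 4 arrays. GP140C10 is the exception. The arrays, comparisons and lists were chosen with earlier results of these data known. Gene lists could not be used for want of gene names. No 8 h arrays held identical values beyond 2 features. Plots were drawn with matplotlib 3.10.9.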

Additional observations from a re-analysis of the deposited data

Results flagged for a closer look

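Replicate 2 at 8 h had 476 values at the upper limit, far above the other 3 arrays (3, 62 and 20). Among 19 sets of 4 values searched for 1 far from the rest with Dixon's test, this was the 1 found, and chance alone would flag about 1 in 20. The 8 h counts without this array stand in the text above. Other time points also had arrays with many upper-limit values, with 333 on 2 h replicate 2, 321 on 4 h replicate 3 and 261 on 10 h replicate 1.

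The remaining results were picked out because the response at 2 time points differed by the test of the difference itself, and their values come from limma. Between 8 h and 0 h, 84 features differed, among them GP070F8 (1.92), GP061B4 (1.80), GP089G2 (-1.44) and GP133F7 (-1.09). Between 8 h and the mean of 2 and 4 h, 1 feature differed, GP095E6 (0.94). Between 22 h and 8 h, 60 features differed, among them GP001G2 (2.40), GP001D5 (2.33), GP007D5 (-0.64) and GP033B4 (-0.60).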

How the results depend on the processing

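All alternatives were planned, and the cause of a change was not tested unless its construction shows it. No named feature changed sign. For the 8 h ratio, limit values kept, no dye term, centred or scaled arrays, a robust variance and other filters left 261 to 352 calls. With the replicate block, 588 were called (392 positive, 196 negative). The labels do not say that same-numbered replicates share a source. Differences between same-orientation replicates at 8 h correlated with those at the other times at 0.01 to 0.36. All 14 correlations were above 0 and 11 were over 0.1, a hint from the data that same-numbered arrays deviate together. Since 3 were not over 0.1, the numbers were not taken as pairs. Averaged pairs gave 192 (140 and 52), the 8 h arrays alone 0 (0 and 0), and a threshold of 0.01 176 (147 and 29). Leaving out 1 array gave 188 to 317 (153 to 227 positive, 35 to 104 negative).

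For 8 h minus 0 h, no dye term gave 51 (44 and 7), the replicate block 158 (130 and 28), averaged pairs 34 (29 and 5), only these time points 26 (24 and 2), and the threshold of 0.01 30 (27 and 3). Leaving out 1 array gave 29 to 86 (26 to 74 positive, 3 to 12 negative). For 8 h minus the mean of 2 and 4 h the replicate block gave 15, averaged pairs 3, only these time points 2, and leaving out 1 array 0 to 11. Averaged pairs and only these time points lost GP095E6. A fit of only the time points compared also lost GP070F8, GP000A3, GP147H10 and GP032G4 for the 8 h ratio and GP061B4 against 0 h. For 22 h minus 8 h it lost GP001G2, GP007D5 and GP033B4. Against 6 h, leaving out 1 array gave 0 to 3, and for 10 h minus 8 h 0 to 2, with 1 where limit values were kept. Against the mean of 6 and 10 h every alternative run gave 0 (288 to 606 at an unadjusted p under 0.05, limma). For 22 h minus 8 h the replicate block gave 108 (93 and 15), only these time points 19 (19 and 0), no dye term 1 on the lower side, and leaving out 1 array 50 to 119 (48 to 112 above, 0 to 14 below).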
